A study of Mus musculus with 8 samples.

Results

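The genes described here encode the aminoacyl-tRNA synthetases, the enzymes that load each transfer RNA with its amino acid. They are 35 genes of the 24420 in the total RNA table, picked by name: 20 encode cytosolic enzymes or their subunits and 15, with symbols ending in 2, encode mitochondrial ones. Lars2 was left out on a measured value, since its polysomal reads follow Rn45s, the ribosomal RNA precursor. RNA was sequenced from the brain of mouse embryos at E11.5, described in the growth protocol as tissue of the neural tube. The embryos were either Lin28a-/-;b-/-, that is without working copies of both Lin28 genes (double knockout, dKO), or wildtype (WT, called control in the growth protocol). The 8 libraries formed 4 groups of 2 replicates each, namely dKO total RNA, WT total RNA, dKO polysomal RNA and WT polysomal RNA. Polysomal RNA is the RNA found on strings of ribosomes. The labels give neither the design of the knockout alleles nor the number of embryos in a library, nor a separate litter or embryo for each replicate. The p-values therefore speak of the spread between these libraries alone, and that spread may be technical.

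Every amino acid needs its own synthetase, and the enzymes fall into class I and class II by the fold of their catalytic domain. Mitochondria translate their own messages with a separate tRNA set, and most of the synthetases for it come from separate nuclear genes, while Gars and Kars each serve both compartments. In animals a group of cytosolic synthetases sits with the scaffold proteins encoded by Aimp1, Aimp2 and Eef1e1 in the multisynthetase complex. ATF4, a transcription factor of the amino acid response whose translation rises when the initiation factor eIF2 is phosphorylated, is known to drive many cytosolic synthetase genes through a short DNA element. Lin28a and Lin28b bind RNA, block maturation of the let-7 microRNAs and are known for their high levels in early neural progenitors. The series title sets the study on Lin28, protein synthesis and the upkeep of neural progenitor cells.

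The total RNA libraries held 15768767 and 15612883 counts in dKO and 15650360 and 15060560 counts in WT, and 14594 genes, all 35 synthetase genes among them, passed the filter on low counts. Lin28a had 6.55 and 7.73 CPM in dKO libraries, against 73.3 and 72.2 CPM in WT libraries, and Lin28b had 48.0 and 55.1 CPM in dKO libraries, against 128 and 123 CPM in WT libraries, where CPM, a level scaled to library size, was taken over the tested genes after TMM scaling. Lin28a and Lin28b thus stood lower in each dKO library than in each WT library, though reads of both were still counted in dKO. Their log2 fold changes (dKO over WT) were -3.35 ± 0.12 for Lin28a and -1.28 ± 0.07 for Lin28b (SE). The summed level of 9 neural progenitor markers was 3994 to 4036 CPM in dKO and 4331 to 4371 CPM in WT. Of these 9 genes 2 were higher and 3 lower, with a median log2 fold change of 0.05. The summed level of 7 neuron markers was 3992 to 3994 CPM in dKO and 3959 to 3989 CPM in WT. Of these 7 genes 2 were higher and 2 lower, with a median of 0.06. Red cell markers summed to 2690 to 2694 CPM in dKO, against 4403 to 4472 CPM in WT, with 6 of 6 tested genes lower and Hba-a1 at 0 in every library. Mesenchyme markers summed to 248 to 254 CPM in dKO and 298 to 313 CPM in WT, with 3 of 6 lower. By the same test 16.0% of all tested genes were lower and 14.7% higher.

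In total RNA the cytosolic synthetase transcripts were lower in dKO almost as a block. Of the 20 cytosolic genes 16 fell, none rose and 4 (Cars, Lars, Qars and Sars) did not pass the test (edgeR quasi-likelihood F test, Benjamini-Hochberg adjusted p under 0.05 over all 14594 genes). Over all tested genes 16.0% fell and 14.7% rose. The median log2 fold change of the 20 genes was -0.39, with a median SE of 0.08, against 0.00 over all genes. All 20 estimates were below 0, from -0.71 for Vars to -0.00 for Sars, although that of Sars came to 0.01 with upper-quartile scaling, and 49.5% of all genes were below 0. In 19 of the 20 genes each dKO library lay below each WT library, as in 31.2% of all genes, and Sars was the exception. The summed cytosolic synthetase level was 1351 and 1371 CPM in dKO libraries and 1750 and 1755 CPM in WT libraries, a change of -22.3%. In whole tissue, fewer cells of a type and less RNA per cell cannot be told apart. The 6 red cell markers and 3 of the 6 mesenchyme markers were lower in the same dKO libraries, and their part in the synthetase levels was not tested. None of 5 endothelial, 3 tested epithelial and 4 neural crest markers was called. Lower were 1 of 5 macrophage markers, C1qa, and the 1 tested muscle marker, Actc1, which had only 0.662 to 0.828 CPM in WT.

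Fewer mitochondrial than cytosolic synthetase genes passed the test. Of the 15 genes 3 fell (Aars2, Iars2 and Tars2), none rose and 12 did not pass the test, a share of fallen genes near the 16.0% over all genes. Their median log2 fold change was -0.17, with a median SE of 0.13, and 13 of 15 estimates were below 0. The dKO libraries lay below the WT libraries without overlap in 7 of 15 genes and above them in 1, Fars2 (31.0% of all genes lay above without overlap). The summed mitochondrial level was 318 and 321 CPM in dKO libraries and 364 and 371 CPM in WT libraries, a change of -13.1%. The mitochondrial genes were also counted less deeply, with a median WT level of 22.3 CPM against 77.8 CPM for the cytosolic genes. Whether the 2 sets differ as sets was not tested.

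**Figure D1:**
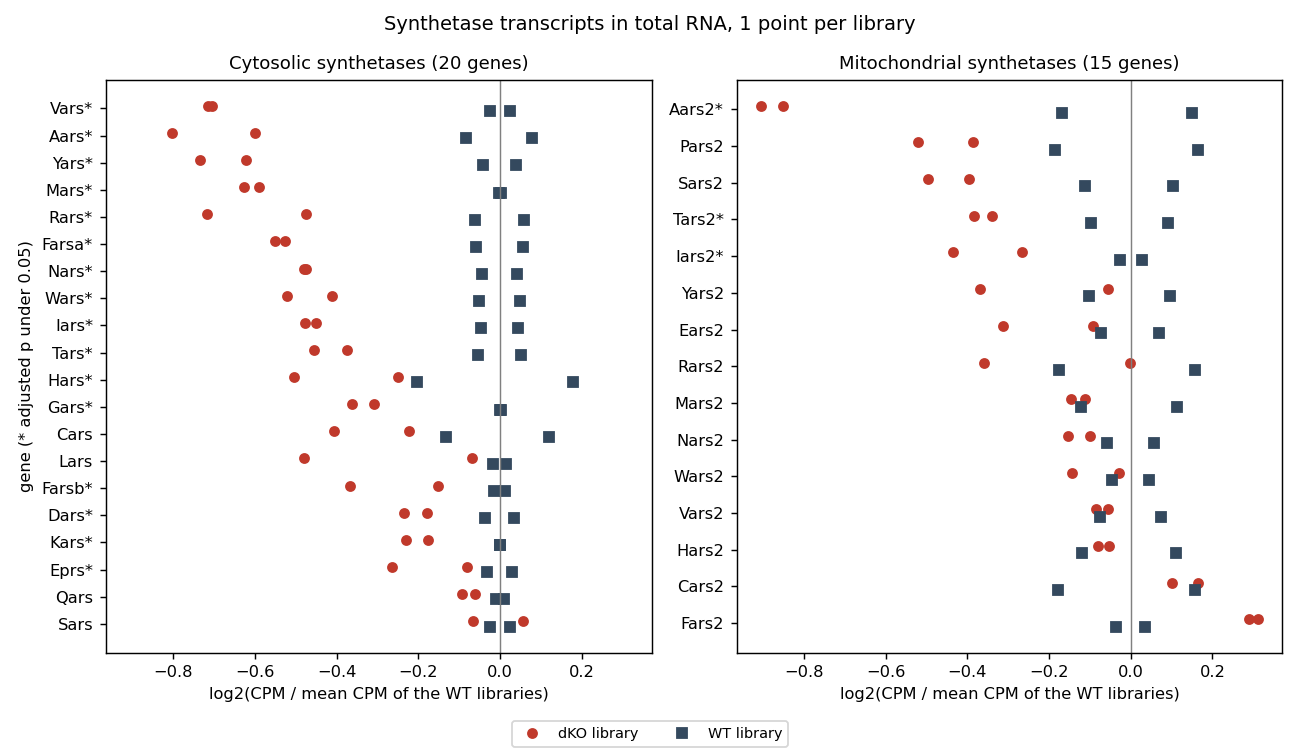
Level of each synthetase transcript in the 4 total RNA libraries, as log2 of its CPM over the mean of the WT libraries (x axis), for 20 cytosolic (left) and 15 mitochondrial genes (right). Circles are dKO libraries and squares WT libraries. The dKO circles lie left of the WT squares without overlap in 19 cytosolic and 7 mitochondrial genes, and right of them only for Fars2.

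The largest cytosolic falls were those of Vars, Aars and Yars, which encode the enzymes for valine, alanine and tyrosine and act outside the multisynthetase complex. Vars (chr17:35000987-35016322, plus strand, GRCm38 as in GENCODE M21) had 111 and 110.1 CPM in dKO libraries, against 184 and 178 CPM in WT libraries. It was the cytosolic gene with the most counts in WT, and its dKO libraries differed by less than 1 CPM. The mean was 110.5 ± 0.477 CPM in dKO and 181 ± 4.30 CPM in WT (SD, n = 2 each), a 1.64-fold fall with a log2 fold change of -0.71 ± 0.05 (SE, edgeR adjusted p = 1.54e-38). Aars (chr8:111033144-111057664, plus strand) had 30.2 and 34.8 CPM in dKO libraries, against 49.7 and 55.7 CPM in WT libraries. All dKO values were lower than all WT values, and the log2 fold change was -0.70 ± 0.10 (edgeR adjusted p = 1.47e-11). The shorter gene Exosc6 lies on the same strand within the exons of Aars and takes up 14.3% of their length, so reads of that stretch cannot be told apart. Yars (chr4:129189760-129219607, plus strand) had 31.9 and 34.5 CPM in dKO libraries, against 54.5 and 51.6 CPM in WT libraries. The groups again did not overlap, and its log2 fold change was -0.68 ± 0.10 (edgeR adjusted p = 4.32e-11).

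Among the 8 genes whose products belong to the multisynthetase complex 6 fell (16.0% over all genes), with a median log2 fold change of -0.23. Mars, for methionine, which every new protein chain begins with, had 55.3 and 53.9 CPM in dKO libraries, against 83.4 and 83.0 CPM in WT libraries. Rars, for arginine, had 44.0 and 52.1 CPM in dKO libraries, against 69.4 and 75.4 CPM in WT libraries. Both genes were lower in each dKO library, with log2 fold changes of -0.61 ± 0.07 for Mars (edgeR adjusted p = 1.8e-14) and -0.59 ± 0.08 for Rars (edgeR adjusted p = 6.72e-12). Iars, for isoleucine, had 90.4 and 92.1 CPM in dKO libraries, against 129.8 and 122 CPM in WT libraries. Its groups stood apart by a clear margin, and its log2 fold change was -0.46 ± 0.06 (edgeR adjusted p = 1.02e-12). Smaller falls were seen for Dars (aspartate, -0.21 ± 0.06, edgeR adjusted p = 0.0039), for Kars (lysine, -0.20 ± 0.06, edgeR adjusted p = 0.00506) and for Eprs, whose product joins the enzymes for glutamate and proline in a single chain (-0.17 ± 0.06, edgeR adjusted p = 0.0131).

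The other complex members did not pass the test. Lars, for leucine, had 22.9 and 30.5 CPM in dKO libraries, against 31.6 and 32.3 CPM in WT libraries. The dKO libraries thus differed more from each other than the higher of them did from WT, and the log2 fold change was -0.26 ± 0.11 (edgeR adjusted p = 0.066), reaching the threshold without dKO replicate 2 (-0.48, edgeR adjusted p = 0.00645). Qars, for glutamine, had 56.4 and 55.1 CPM in dKO libraries, against 58.4 and 59.2 CPM in WT libraries. The libraries did not overlap, but the difference was small beside its error (-0.08 ± 0.08, edgeR adjusted p = 0.529). Leaving out a library leaves 1 in its group, which is then assumed to vary like the other group. Under this, Dars missed the threshold without dKO replicate 1 (-0.18, edgeR adjusted p = 0.0748) and without WT replicate 1 (-0.18, edgeR adjusted p = 0.0719). Eprs did so without dKO replicate 2 (-0.08, edgeR adjusted p = 0.485) and without WT replicate 1 (-0.14, edgeR adjusted p = 0.126), and Kars without dKO replicate 2 (-0.18, edgeR adjusted p = 0.0902). In DESeq2 the adjusted p of Eprs was 0.0862.

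Of the 12 cytosolic genes outside the complex 10 fell (16.0% over all genes), with a median log2 fold change of -0.44. Gars, for glycine, was the most abundant synthetase transcript per length and had 135 and 141 CPM in dKO libraries, against 174 and 174 CPM in WT libraries. The replicates lay close together and the groups well apart, and the log2 fold change was -0.34 ± 0.05 (edgeR adjusted p = 9.67e-10). Nars, for asparagine, had 70.2 and 70.0 CPM in dKO libraries, against 94.7 and 100.5 CPM in WT libraries, and Wars, for tryptophan, had 70.3 and 75.8 CPM in dKO libraries, against 97.4 and 104 CPM in WT libraries. Neither gene overlapped between genotypes, with log2 fold changes of -0.48 ± 0.07 for Nars (edgeR adjusted p = 8.63e-11) and -0.46 ± 0.07 for Wars (edgeR adjusted p = 1.41e-10). Tars, for threonine, had 36.9 and 34.9 CPM in dKO libraries, against 46.0 and 49.6 CPM in WT libraries. The groups were separate, and Tars fell with a log2 fold change of -0.41 ± 0.10 (edgeR adjusted p = 0.000152).

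Farsa and Farsb encode the α and β subunits of the phenylalanine enzyme, which works as a tetramer of both. Farsa had 398 and 386 read counts in dKO libraries, against 595 and 529 read counts in WT libraries, or 25.1 ± 0.32 CPM in dKO and 36.5 ± 2.04 CPM in WT (SD, n = 2 each). Farsb had 52.2 and 60.6 CPM in dKO libraries, against 66.7 and 68.0 CPM in WT libraries. Both subunit transcripts were lower in each dKO library, with log2 fold changes of -0.54 ± 0.11 for Farsa (edgeR adjusted p = 1.32e-05) and -0.26 ± 0.08 for Farsb (edgeR adjusted p = 0.00618). The call of Farsb was lost without dKO replicate 1 (-0.15, edgeR adjusted p = 0.284), without WT replicate 2 (-0.24, edgeR adjusted p = 0.0564) and in DESeq2 (DESeq2 adjusted p = 0.0503). Hars, for histidine, lies head to head with Hars2, with 7.97% of its exon length on the opposite strand of it, and had 36.9 and 43.9 CPM in dKO libraries, against 45.4 and 59.2 CPM in WT libraries. Its values were spread widely in both groups yet did not overlap, and its log2 fold change of -0.37 ± 0.09 (edgeR adjusted p = 0.000416) missed the threshold without dKO replicate 1 (-0.25, edgeR adjusted p = 0.0927) and without WT replicate 2 (-0.17, edgeR adjusted p = 0.322).

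The 2 cytosolic genes outside the complex that were not called were Cars and Sars. Cars, for cysteine, was the cytosolic gene with the fewest counts and had 14.2 and 16.1 CPM in dKO libraries, against 20.4 and 17.1 CPM in WT libraries. The groups did not overlap, but its error was wide (-0.31 ± 0.14, edgeR adjusted p = 0.087), and it was called only without WT replicate 2 (-0.43, edgeR adjusted p = 0.0447). Sars, for serine, had 148 and 136 CPM in dKO libraries, against 144 and 139.6 CPM in WT libraries. Its dKO libraries lay on either side of the WT libraries (-0.00 ± 0.05, edgeR adjusted p = 0.973). Its SE of 0.05 was as small as that of Vars. Sorted by catalytic class, 6 of 9 class I and 9 of 10 class II cytosolic genes fell, with medians of -0.46 and -0.35, leaving aside Eprs, which joins both classes. Over all genes 16.0% fell, and a difference between the classes was not tested.

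Among the mitochondrial synthetases the largest change was that of Aars2, for alanine (chr17:45506841-45520843, plus strand). It had 10.2 and 10.6 CPM in dKO libraries, against 17.1 and 21.3 CPM in WT libraries. Both dKO libraries were far below both WT libraries, a 1.84-fold fall with a log2 fold change of -0.88 ± 0.16 (edgeR adjusted p = 2.66e-07), which exceeded in size that of its cytosolic counterpart Aars. Iars2, for isoleucine, had 49.7 and 44.2 CPM in dKO libraries, against 60.8 and 58.6 CPM in WT libraries, without overlap (-0.35 ± 0.09, edgeR adjusted p = 0.000392). Of its exon length, 24.2% is also covered on the opposite strand by Rab3gap2 and 2010103J01Rik, and the strand setting of the counting is not given in the sources used here. Tars2, for threonine, had 29.1 and 28.2 CPM in dKO libraries, against 34.4 and 39.2 CPM in WT libraries, and it fell as well (-0.36 ± 0.11, edgeR adjusted p = 0.00435). The call of Iars2 was lost without dKO replicate 2 (-0.26, edgeR adjusted p = 0.0507) and that of Tars2 without WT replicate 2 (-0.26, edgeR adjusted p = 0.145).

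Pars2, for proline, and Sars2, for serine, were also lower in each dKO library but were counted at low levels and did not pass the test. Pars2 had 7.57 and 8.31 CPM in dKO libraries, against 9.55 and 12.2 CPM in WT libraries (-0.45 ± 0.19, edgeR adjusted p = 0.0609), and it passed only without WT replicate 1 (-0.62, edgeR adjusted p = 0.0222). Sars2 had 7.51 and 8.05 CPM in dKO libraries, against 9.81 and 11.4 CPM in WT libraries (-0.44 ± 0.20, edgeR adjusted p = 0.0686). Fars2, for phenylalanine, was the only member above WT in every dKO library, with 23.7 and 23.4 CPM in dKO libraries, against 19.6 and 18.7 CPM in WT libraries. Its log2 fold change of 0.30 ± 0.13 missed the threshold (edgeR adjusted p = 0.0648) and passed it with an offset for transcript GC content (0.33, edgeR adjusted p = 0.0395). Of its exon length, 10.7% is shared with Lyrm4 and Nrn1 on the opposite strand. The other 9 mitochondrial genes (Cars2, Ears2, Hars2, Mars2, Nars2, Rars2, Vars2, Wars2 and Yars2) had log2 fold changes between -0.20 for Yars2 and 0.13 for Cars2, with adjusted p-values of 0.165 to 0.77. Among these only Ears2 and Nars2 were lower in dKO without overlap, and Yars2 was called without dKO replicate 2 (-0.37, edgeR adjusted p = 0.0459).

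Levels were compared between genes per kilobase of transcript. In WT the cytosolic genes spanned 5.83 CPM per kb for Cars to 73.2 CPM per kb for Gars, with a median of 28.4, and the mitochondrial genes spanned 2.45 for Mars2 to 20.0 for Yars2, with a median of 6.01. Kars and Wars followed Gars at 56.2 and 55.3 CPM per kb in WT, and Gars and Kars are the genes that serve both compartments. In dKO, Gars stood at 58.0, Kars at 48.8 and Wars at 40.1 CPM per kb. Vars, the fifth in WT with 43.7 CPM per kb, stood at 26.7 in dKO, below Sars, which had 39.7 in dKO and 39.8 in WT. The value of Mars2 leans on an annotated transcript of 11294 bases, of which 9470 are 3' untranslated. Vars and Aars had like fold changes at WT levels of 43.7 and 9.17 CPM per kb. The value of Aars also leans on its annotated transcript of 5750 bases, of which 2460 are 3' untranslated. Of that transcript 1326 bases align to Exosc6.

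**Figure D2:**
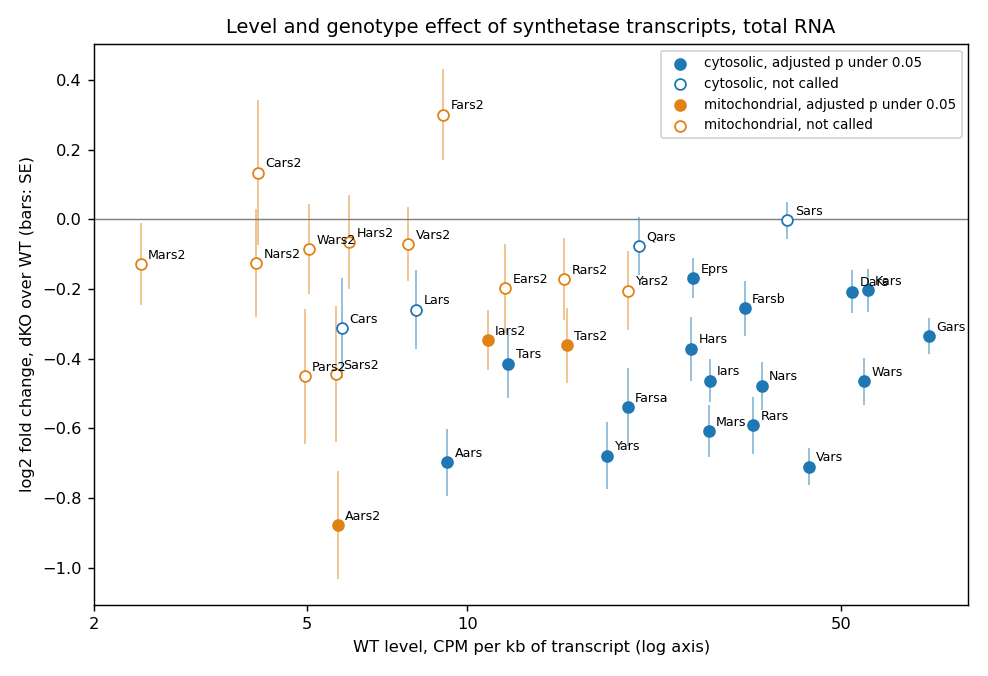
Log2 fold change in total RNA (dKO over WT, y axis, bars SE) against the WT level in CPM per kb of transcript (x axis, log scale) for 35 synthetase genes. Filled points passed an adjusted p of 0.05; the 16 filled cytosolic points run from 9.17 CPM per kb for Aars to 73.2 CPM per kb for Gars, and the 3 filled mitochondrial points are Aars2, Iars2 and Tars2.

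For 12 amino acids both a cytosolic and a mitochondrial gene were measured, which allows the ratio of their CPM to be taken within a library. The log2 fold change was more negative for the cytosolic gene in 10 of the 12 pairs. The ratio was lower in both dKO libraries than in both WT libraries in 8 pairs, higher in 2 and overlapping in 2 (Iars with Iars2 and Tars with Tars2). The share for ratios of other gene pairs was not taken. Among all single genes, 31.2% lay lower and 31.0% higher in dKO without overlap. The Vars to Vars2 ratio was 3.35 and 3.40 in dKO, against 5.08 and 5.45 in WT. The Yars to Yars2 ratio was 1.31 and 1.14 in dKO, against 1.62 and 1.76 in WT, and the Mars to Mars2 ratio was 2.21 and 2.11 in dKO, against 3.28 and 2.78 in WT. In all 3 pairs the cytosolic member had fallen and the mitochondrial one was not called. The Sars to Sars2 ratio ran the other way with 19.7 and 16.8 in dKO, against 14.7 and 12.3 in WT, as did the Aars to Aars2 ratio with 2.95 and 3.27 in dKO, against 2.91 and 2.62 in WT. Per length, the cytosolic gene had the higher WT level in 10 pairs, all but those for threonine and tyrosine. Summed over all members, cytosolic over mitochondrial CPM was 4.25 and 4.28 in dKO libraries and 4.81 and 4.73 in WT libraries.

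**Figure D3:**
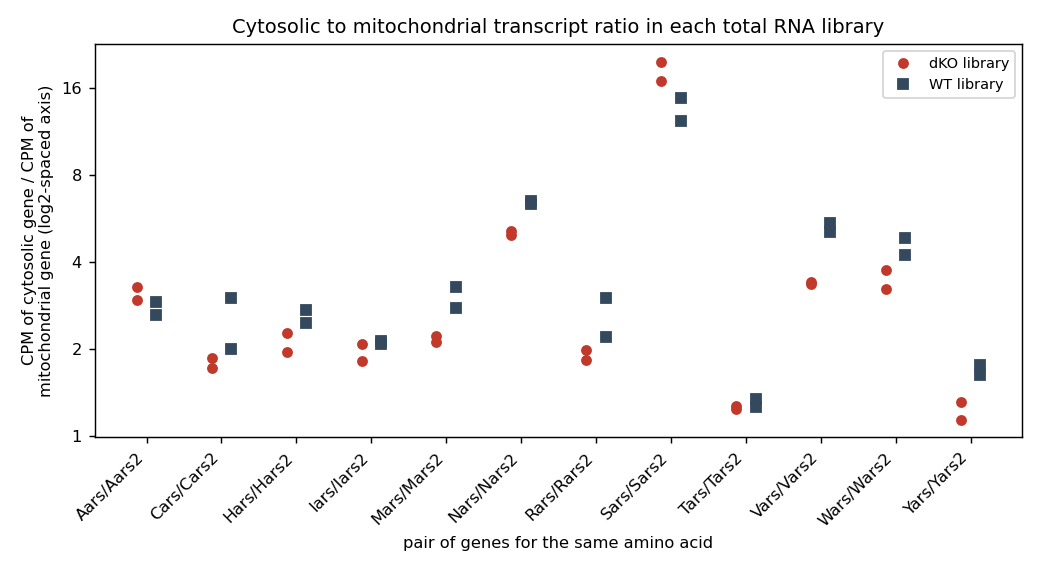
CPM of the cytosolic gene over CPM of the mitochondrial gene for the same amino acid (y axis, log2-spaced), in each total RNA library, for 12 pairs. Circles are dKO libraries and squares WT libraries. The dKO ratios lie below the WT ratios in 8 pairs and above them for Aars/Aars2 and Sars/Sars2. The share for ratios of other gene pairs was not taken.

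The promoters of the members were searched for an element that the choice of members did not use. The amino acid response element of C/EBP-ATF type (CARE), which ATF4 binds, was searched as TGATGNAA on both strands of RefSeq promoters of the GRCm38.p6 build, each reaching from 250 bases before to 50 after the start site, 300 bases in all. Of the 35 members 26 matched an entry. The element was found in 5 of 13 cytosolic genes (38.5%), in 0 of 13 mitochondrial genes and in 4.51% of 27025 genes. The 5 promoters follow, with the element in capitals. They are shown because all 5 genes fell in total RNA.
Aars promoter, chr8:111033592-111033891, plus strand: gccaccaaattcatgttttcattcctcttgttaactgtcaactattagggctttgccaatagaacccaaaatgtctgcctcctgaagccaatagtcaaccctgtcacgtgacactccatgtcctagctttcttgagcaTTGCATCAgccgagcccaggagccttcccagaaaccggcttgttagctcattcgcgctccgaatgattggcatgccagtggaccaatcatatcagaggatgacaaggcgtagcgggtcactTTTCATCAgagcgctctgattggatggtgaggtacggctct
Gars promoter, chr6:55037751-55038050, plus strand: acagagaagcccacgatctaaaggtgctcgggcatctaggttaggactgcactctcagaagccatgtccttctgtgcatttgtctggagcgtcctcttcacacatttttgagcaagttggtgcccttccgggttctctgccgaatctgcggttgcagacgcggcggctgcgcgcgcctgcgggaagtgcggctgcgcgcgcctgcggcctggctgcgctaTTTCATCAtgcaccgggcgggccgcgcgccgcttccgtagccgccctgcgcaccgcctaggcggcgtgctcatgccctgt
Iars promoter, chr13:49681880-49682179, plus strand: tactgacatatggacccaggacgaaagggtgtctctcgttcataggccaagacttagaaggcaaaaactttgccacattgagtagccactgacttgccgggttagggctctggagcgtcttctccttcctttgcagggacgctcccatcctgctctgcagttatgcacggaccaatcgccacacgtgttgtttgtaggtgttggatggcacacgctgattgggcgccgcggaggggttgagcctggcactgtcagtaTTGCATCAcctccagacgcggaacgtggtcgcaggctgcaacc
Tars promoter, chr15:11399609-11399908, minus strand: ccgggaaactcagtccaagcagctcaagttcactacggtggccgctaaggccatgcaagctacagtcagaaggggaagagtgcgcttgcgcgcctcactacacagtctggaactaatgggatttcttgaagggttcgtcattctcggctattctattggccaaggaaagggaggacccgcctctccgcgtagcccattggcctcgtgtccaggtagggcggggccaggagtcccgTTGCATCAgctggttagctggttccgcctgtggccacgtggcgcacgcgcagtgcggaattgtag
Yars promoter, chr4:129189653-129189952, plus strand: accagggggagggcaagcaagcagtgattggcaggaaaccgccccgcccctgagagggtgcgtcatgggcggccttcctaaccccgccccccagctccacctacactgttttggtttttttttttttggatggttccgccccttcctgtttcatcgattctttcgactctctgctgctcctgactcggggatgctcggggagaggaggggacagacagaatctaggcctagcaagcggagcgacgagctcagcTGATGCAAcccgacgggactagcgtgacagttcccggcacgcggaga

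Aars held 2 elements. The element read as TGATGCAA on the reverse strand began 112 bases before the start site, and the other was TGATGAAA just after the start. Gars held TGATGAAA 30 bases and Tars TGATGCAA 15 bases before the start, both on the reverse strand. In Iars and Yars the letters TGATGCAA lay within the first bases after the start. The 5 genes with the element had a median log2 fold change of -0.46. Of the 8 matched cytosolic genes without it 6 fell, with a median of -0.21. Cars, Hars, Lars, Nars, Rars, Vars and Wars matched no promoter entry and are in neither group. Their values ran from -0.71 for Vars to -0.26 for Lars, so these medians do not cover the whole cytosolic set. Of the 12 cytosolic genes commonly listed as ATF4 targets 9 fell (median -0.44), and of the 8 others 7 fell (median -0.31). Over all genes 16.0% fell. Whether the element or the ATF4 list goes with the size of the fall was not tested. The E-box CACGTG, bound by Myc and related factors, was found in 4 of 13 cytosolic promoters (Aars, Farsb, Iars and Tars), in 1 of 13 mitochondrial ones (Ears2) and in 8.09% of all genes. A match of letters is a description of sequence, and binding was not measured.

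Atf4 itself had 266 and 262 CPM in dKO libraries, against 259 and 263 CPM in WT libraries in total RNA. Its groups overlapped, with a log2 fold change of 0.02 ± 0.04 (edgeR adjusted p = 0.824). Asns, asparagine synthetase and a classic ATF4 target, had 13.7 and 11.1 CPM in dKO libraries, against 17.6 and 20.0 CPM in WT libraries and fell (-0.60 ± 0.15, edgeR adjusted p = 0.000488). Of 30 measured genes of the ATF4 and amino acid response 7 fell and 4 rose, with a median of -0.11, against 16.0% lower and 14.7% higher over all genes. Asns, Psat1, Phgdh, Shmt2, Mthfd2, Aldh18a1 and Slc38a2, mostly enzymes of serine, folate, proline and asparagine metabolism, were the genes that fell. Slc7a11, which imports cystine, rose with 17.4 and 18.3 CPM in dKO libraries, against 6.62 and 8.93 CPM in WT libraries (1.20 ± 0.17, edgeR adjusted p = 3.62e-11), as did Slc7a5, Ddit4 and Cebpg. Among 13 genes for eIF2 kinases, phosphatases and eIF2B subunits 7 fell and none rose (median -0.25, with 16.0% lower over all genes). In DESeq2 4 of these 13 were called lower, as were 1548 of all tested genes.

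The partners of the synthetases did not all follow them. The complex scaffold genes Aimp1 (-0.13 ± 0.09, edgeR adjusted p = 0.328) and Aimp2 (-0.21 ± 0.10, edgeR adjusted p = 0.124) were not called, and Eef1e1 rose, with 104 and 121 CPM in dKO libraries, against 93.6 and 100.5 CPM in WT libraries (0.21 ± 0.06, edgeR adjusted p = 0.00425). This rise was not called in DESeq2 or with all 8 libraries in 1 fit. Xpot, which exports tRNA from the nucleus, was not called (0.02 ± 0.06, edgeR adjusted p = 0.893). Of 6 cytosolic elongation factor genes, part of the machinery that brings charged tRNA to the ribosome and moves it along, Eef1a1 and Eef2 rose and Eef1d fell. Over all genes 14.7% rose and 16.0% fell. Of 22 genes for tRNA processing and modification 7 fell and 1 rose (median -0.17, with 16.0% lower and 14.7% higher over all genes), with the largest changes in Nsun2, a tRNA methyltransferase (-0.63 ± 0.06), and Trdmt1 (0.61 ± 0.19). Trdmt1 was not called higher in DESeq2 or with all 8 libraries in 1 fit. Of 13 mitochondrial translation factor genes 4 fell and none rose (median -0.12, beside the same 16.0% lower over all genes). They were Gfm1, Gfm2, Mtfmt, which formylates the initiator tRNA (-0.54 ± 0.20, edgeR adjusted p = 0.0271), and Tufm, the mitochondrial elongation factor Tu, with 8.72 and 9.86 CPM in dKO libraries, against 15.8 and 13.4 CPM in WT libraries (-0.65 ± 0.17, edgeR adjusted p = 0.000882). DESeq2 called 2 of the 13 mitochondrial translation factor genes lower.

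Since Lin28 proteins hold back let-7, the synthetase transcripts were also searched for the let-7 seed match. The seed, bases 2 to 8 in capitals, is shared by the family members shown here from RefSeq, and the only called member with a match is given below them as a stretch of its 3' untranslated region at chr17:45520766-45520795 (plus strand, GRCm38), with the match CTACCTC in capitals.
mmu-let-7a-5p: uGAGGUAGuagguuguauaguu
mmu-let-7g-5p: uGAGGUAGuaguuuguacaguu
Aars2 site: agcatccacatggaggctccCTACCTCctc

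A match was present in the 3' untranslated regions of 4 of 35 synthetase transcripts (11.4%), those of Qars, Aars2, Pars2 and Wars2, against 9.65% of 13570 tested genes. Among the 19 members that fell in total RNA, 1 had a match (5.26%). Synthetase 3' untranslated regions were short, with a median of 297 bases against 1094 bases over all genes, which limits what a search for 7 letters can find. The motif is a description of sequence, and let-7 itself was not measured.

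The polysomal table listed 5804 genes, among them 13 of the 35 synthetase genes (37.1%, against 39.3% of all genes tested in total RNA): Aars, Dars, Farsb, Iars, Rars, Tars, Vars and Yars of the cytosolic set and Aars2, Iars2, Rars2, Sars2 and Vars2 of the mitochondrial set. The other 22 members were not analysed in polysomal RNA. The listing followed the difference between genotypes. Of the listed genes, 5441 averaged 100 counts or more, and none of these had a log2 ratio of summed dKO over summed WT counts between -2.04 and -1.71, and 99.7% of the 5778 tested genes were called. A call in this table is therefore no result about the synthetases, and p-values are conditional on the listing. Levels were scaled over listed genes alone, whose sums were 3740980 and 5164982 counts in dKO libraries and 14874143 and 15414712 counts in WT libraries. These sums cover part of each library and are not its depth. The dKO replicates also differed more than those of other groups, and Rn45s took 9.52% and 4.58% of listed counts in dKO libraries against 0.12% and 0.109% in WT libraries.

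The listed synthetases split in direction in polysomal RNA. Higher in dKO were 6 of 13 (47.2% of all tested genes were higher): Aars, Vars, Yars, Aars2, Sars2 and Vars2. Lower were 7 of 13 (52.5% of all tested genes): Dars, Farsb, Iars, Rars, Tars, Iars2 and Rars2. For all 13 the dKO and WT libraries did not overlap, as for all 5778, or 100%, of the tested genes in this table. Several of the higher genes were those with the largest falls in total RNA. Vars had 329 and 348 CPM in dKO polysomal libraries, against 229.5 and 225 CPM in WT polysomal libraries. Yars had 147 and 129 CPM in dKO libraries, against 83.2 and 87.2 CPM in WT libraries. Both stood clearly above WT, at 0.58 ± 0.07 for Vars (edgeR adjusted p = 0.00053) and 0.69 ± 0.11 for Yars (edgeR adjusted p = 0.00127) on the log2 scale. Aars had 91.5 and 102 CPM in dKO libraries, against 68.4 and 69.2 CPM in WT libraries, also higher without overlap (0.49 ± 0.11, edgeR adjusted p = 0.00506). The call of Aars was lost without WT polysomal replicate 1 (0.48, edgeR adjusted p = 0.0742) and without WT polysomal replicate 2 (0.50, edgeR adjusted p = 0.0672).

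The mitochondrial genes that were higher were Aars2, with 43.5 and 40.0 CPM in dKO libraries, against 22.9 and 25.0 CPM in WT libraries, Sars2, with 38.2 and 31.3 CPM in dKO libraries, against 13.8 and 14.2 CPM in WT libraries, and Vars2, for valine, with 103 and 87.8 CPM in dKO libraries, against 52.5 and 48.0 CPM in WT libraries. The dKO libraries were above both WT libraries in all 3 genes. The log2 fold changes were 0.80 ± 0.16 for Aars2 (edgeR adjusted p = 0.00341), 1.30 ± 0.19 for Sars2 (edgeR adjusted p = 0.00114) and 0.92 ± 0.13 for Vars2 (edgeR adjusted p = 0.000992). Aars2 missed the threshold without WT polysomal replicate 1 (0.74, edgeR adjusted p = 0.066).

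Of the 7 lower genes, Dars, Iars and Rars encode members of the multisynthetase complex, the only complex members in the table. Rars had 36.2 and 39.2 CPM in dKO libraries, against 126 and 121 CPM in WT libraries. Dars had 52.6 and 79.5 CPM in dKO libraries, against 193 and 184 CPM in WT libraries, and Iars had 83.8 and 75.6 CPM in dKO libraries, against 175 and 171 CPM in WT libraries. The dKO values were below WT in every library, most evenly for Rars, while the dKO replicates of Dars lay further apart. Their log2 fold changes were -1.71 ± 0.11 for Rars (edgeR adjusted p = 0.000116), -1.49 ± 0.18 for Dars (edgeR adjusted p = 0.000563) and -1.12 ± 0.10 for Iars (edgeR adjusted p = 0.000194). Rars2, the mitochondrial arginine enzyme, was the lowest of the 13 with 17.6 and 10.6 CPM in dKO libraries, against 51.1 and 52.7 CPM in WT libraries (-1.91 ± 0.24, edgeR adjusted p = 0.000644). Smaller falls were measured for Farsb (-0.42 ± 0.11, edgeR adjusted p = 0.00911), Tars (-0.69 ± 0.19, edgeR adjusted p = 0.0107) and Iars2 (-0.63 ± 0.11, edgeR adjusted p = 0.00198).

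Farsb and Tars were not called under every alternative. Farsb missed the threshold with RLE scaling (-0.19, edgeR adjusted p = 0.161), which moved the median of all genes by 0.24 on the log2 scale, without WT polysomal replicate 1 (-0.48, edgeR adjusted p = 0.0797) and without WT polysomal replicate 2 (-0.36, edgeR adjusted p = 0.175). Tars did so without WT polysomal replicate 1 (-0.64, edgeR adjusted p = 0.0534), and in DESeq2 the adjusted p-values were 0.0578 for Tars and 0.348 for Farsb.

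The direction of the polysomal difference went with the base composition of the transcript. The 6 higher genes had a GC content of 52.8% to 60.9% and the 7 lower genes one of 41.2% to 48.3%, with no overlap. The same held across the table: 90.3% of the 2938 genes under 50% GC were lower and 87.0% of the 2804 genes at or above 50% GC were higher. Spearman's rho between GC content and log2 fold change was 0.86 over the 13 genes and 0.78 over 5742 genes, values that share the same libraries and are given as a description. In total RNA it was -0.23 over the 35 members and -0.09 over 14466 genes. With an offset for GC content fitted to each library the polysomal estimates changed sign for Aars (-0.33), Vars (-0.54), Aars2 (-0.27), Vars2 (-0.06) and Farsb (0.20). None of the 13 was then called higher, against 22.9% of all genes, and 5 were called lower, against 22.2%. These were Vars, Dars (-0.44), Iars (-0.80), Rars (-1.05) and Rars2 (-1.08). In total RNA the same offset left all 16 cytosolic and 3 mitochondrial calls lower (15.9% of all genes) and added Fars2 as higher (14.4%). The part of GC content in these polysomal directions was not tested beyond this offset.

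Of the related genes fixed by name, Atf4, Asns and Eef1e1 are described in polysomal RNA as well. Further genes named for total RNA, Eef1a1, Eef2 and Nsun2 among them, were also listed there and are not described here. Atf4 had 419 and 424 CPM in dKO libraries, against 313 and 304 CPM in WT libraries (0.45 ± 0.06, edgeR adjusted p = 0.000824). Asns had 12.6 and 12.0 CPM in dKO libraries, against 27.8 and 31.5 CPM in WT libraries (-1.27 ± 0.19, edgeR adjusted p = 0.00128), and Eef1e1 had 45.3 and 60.2 CPM in dKO libraries, against 146 and 153 CPM in WT libraries (-1.48 ± 0.14, edgeR adjusted p = 0.000279). The libraries of the genotypes did not overlap for any of the 3, as for 100% of the tested genes in this table. Since 99.7% of the tested genes were called, these calls are no result about the 3 genes. No values with the GC offset are given for them here.

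**Figure D4:**
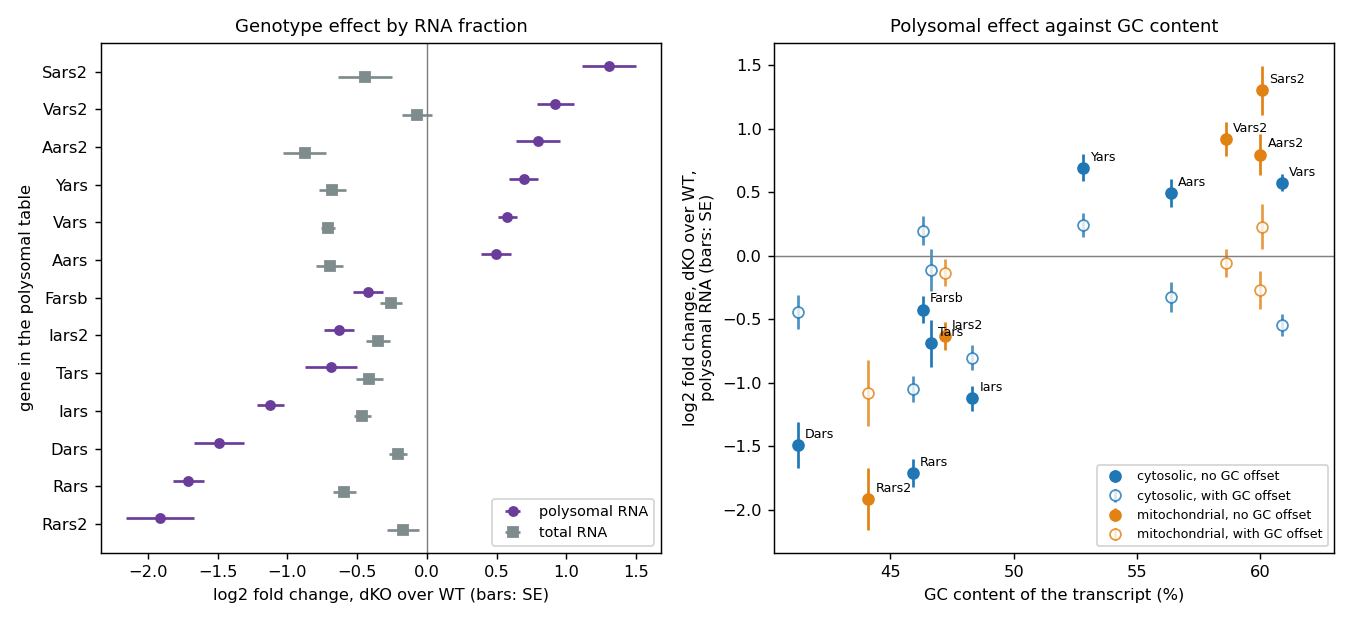
Left, log2 fold change (dKO over WT, x axis, bars SE) of the 13 listed synthetase genes in polysomal RNA (circles) and total RNA (squares). Right, the polysomal log2 fold change (y axis, bars SE) against transcript GC content (x axis, %), without (filled) and with (open) an offset for GC content; the filled points are above 0 at 52.8% GC and over and below 0 at 48.3% and under, and with the offset Aars, Vars, Aars2, Vars2 and Farsb change sign.

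Whether the genotype effect differed between the RNA fractions was tested as an interaction over all 8 libraries. It was called for 10 of the 13 listed synthetases, and for 89.5% of all 5780 genes. Of the synthetases 6 had a positive and 4 a negative value, against 43.7% positive and 45.8% negative over all genes. Its zero rests on scaling over the listed genes. The positive values were those of Sars2 (1.78 ± 0.25, edgeR adjusted p = 0.000103), Aars2 (1.71 ± 0.22), Yars (1.41 ± 0.13), Vars (1.32 ± 0.08), Aars (1.23 ± 0.15) and Vars2 (1.03 ± 0.16). The negative ones were those of Rars2 (-1.72 ± 0.29), Dars (-1.23 ± 0.18), Rars (-1.08 ± 0.15) and Iars (-0.62 ± 0.11, edgeR adjusted p = 0.000344). Aars, Vars, Yars and Aars2 were thus lower in dKO total RNA and higher in dKO polysomal RNA relative to the listed genes, without the GC offset. Farsb, Tars and Iars2 were not called (-0.13 ± 0.14, -0.22 ± 0.20 and -0.24 ± 0.13), and Tars was called without dKO polysomal replicate 2 (-0.55, edgeR adjusted p = 0.00357).

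With the GC offset 21.2% of all genes had a positive and 19.2% a negative interaction that was called. Among the synthetases it remained called for Yars (0.96, edgeR adjusted p = 0.000121), Aars2 (0.67, edgeR adjusted p = 0.0315), Sars2 (0.73, edgeR adjusted p = 0.0351), Iars (-0.36, edgeR adjusted p = 0.023), Rars (-0.48, edgeR adjusted p = 0.0232) and Rars2 (-0.94, edgeR adjusted p = 0.0287). It was no longer called for Aars (0.42, edgeR adjusted p = 0.0551), Vars (0.23, edgeR adjusted p = 0.0877), Vars2 (0.06, edgeR adjusted p = 0.762) and Dars (-0.19, edgeR adjusted p = 0.291). Farsb turned positive and was called (0.42, edgeR adjusted p = 0.0329).

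Within each genotype, polysomal was set against total RNA over the listed genes. For each gene all 8 libraries shared 1 estimate of spread, so calls in WT also rest on the spread of the dKO libraries. The chi-square per degree of freedom between replicates was 24.8 for dKO polysomal and 2.89 for WT polysomal RNA. In WT 1 of the 13 synthetases differed, Vars, which was lower in polysomal RNA (-0.25 ± 0.06, edgeR adjusted p = 0.0177), as were 8.51% of all genes, and 0 of the 13 were higher, against 3.48% of all genes. This call was lost without WT total replicate 1 (-0.22, edgeR adjusted p = 0.167), without WT total replicate 2 (-0.27, edgeR adjusted p = 0.104), without dKO total replicate 1 (-0.25, edgeR adjusted p = 0.0514), without dKO total replicate 2 (-0.24, edgeR adjusted p = 0.055), without WT polysomal replicate 1 (-0.26, edgeR adjusted p = 0.139) and without WT polysomal replicate 2 (-0.23, edgeR adjusted p = 0.209). The other 12 lay between -0.26 for Aars2 and 0.29 for Rars2. Without dKO polysomal replicate 1, Dars (0.15), Rars (0.20) and Rars2 (0.30) were called higher, and without dKO polysomal replicate 2 the same genes were called (0.14, 0.20 and 0.29).

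In dKO 6 of the 13 were higher in polysomal RNA (43.1% of all genes) and 5 were lower (46.9%). The higher genes were Sars2 (1.61 ± 0.18), Yars (1.51 ± 0.10), Aars2 (1.46 ± 0.17), Vars (1.08 ± 0.06), Aars (1.04 ± 0.11) and Vars2 (0.998 ± 0.12). The lower ones were Rars2 (-1.43 ± 0.23), Dars (-1.09 ± 0.14), Rars (-0.88 ± 0.12), Iars (-0.74 ± 0.08) and Farsb (-0.26 ± 0.10, edgeR adjusted p = 0.0315). Farsb missed the threshold without dKO total replicate 2 (-0.16, edgeR adjusted p = 0.212), without dKO polysomal replicate 2 (-0.24, edgeR adjusted p = 0.0633) and with RLE scaling (-0.12, edgeR adjusted p = 0.281). Iars2 (-0.13 ± 0.10) and Tars (-0.19 ± 0.15) were not called. With the GC offset Yars, Aars2, Sars2 and Iars2 were called higher (28.2% of all genes) and Iars, Rars and Rars2 lower (27.3%), while the calls of Vars (0.07, edgeR adjusted p = 0.454), Vars2 (0.11, edgeR adjusted p = 0.428), Aars (0.28, edgeR adjusted p = 0.062) and Dars (-0.09, edgeR adjusted p = 0.507) were lost. Farsb then came to 0.26, no longer called, and Iars2 to 0.27. Iars2 came to 0.01 with RLE scaling, and Tars was called without dKO polysomal replicate 2 (-0.51, edgeR adjusted p = 0.0022) and came to 0.05 without dKO polysomal replicate 1. The genotype comparisons and these fraction comparisons share libraries, so their values are not independent of each other.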

How the data were processed

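How polysomes were collected, which strand and annotation the counting used and how it treated multiply mapped reads is not given in the sources used here. Per the labels' protocols, RNA was taken up in Trizol, and a NEBNext Ultra Directional kit, which keeps strand, was used for the libraries. The submitters' processing notes list FastQC, TopHat and HTSeq, and as builds mm9, mm10 and GRCm38, with neither versions nor roles. The authors deposited raw counts, whole numbers for each gene symbol, in a total RNA table of 24420 genes and a polysomal table of 5804 genes, and 0 of their columns went unused.

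Counts were tested with edgeR 4.0.16 in R 4.3.3 (TMM scaling, filterByExpr, quasi-likelihood F test), with Benjamini-Hochberg adjustment over all genes tested and a threshold of 0.05. Genotype comparisons used the 4 libraries of a fraction, and fraction comparisons and the interaction used all 8 libraries and 5780 shared genes. SEs are the absolute log2 fold change over the square root of F. On simulated counts with few genes changed, as many up as down, the genotype fits of both fractions returned the changes put in. The fraction comparisons and the interaction were not simulated. That setting differs from the polysomal table, where 99.7% of the tested genes were called, so the simulation cannot speak for it. Common biological coefficients of variation were 0.0504 in total RNA and 0.0899 in polysomal RNA. The chi-square per degree of freedom between replicates was 2.88 for dKO total, 3.19 for WT total, 24.8 for dKO polysomal and 2.89 for WT polysomal RNA, so no pair was a single library deposited under both numbers.

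Transcript length, GC content, gene overlaps and 3' untranslated regions came from GENCODE M21 on GRCm38, using the longest principal transcript, and promoters and microRNAs from RefSeq tables (GRCm38.p6). Of the symbols, 23998 matched GENCODE. No copy of 300 bases or more at 95% identity or above was found for a member, other than overlapping genes.

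Alternatives were RLE and upper-quartile scaling, no filter, a mean of at least 5 CPM, DESeq2 1.42.0, limma-voom (limma 3.58.1), the replicate number as a block, an offset for GC content (loess with span 0.5 of log2 CPM minus the mean of the WT libraries, per library) with and without the block, all 8 libraries in 1 fit, leaving out Rn45s, Lars2 and Mir6236, and leaving out each library. The rule for named genes took all members, Lin28a, Lin28b and 8 related genes given by name, and from each related list the 2 called genes with the largest change. Further list genes are named as the members of a count and were picked after their values were seen. The members and lists were chosen with earlier results of these data known.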

Additional observations from a re-analysis of the deposited data

Results flagged for a closer look

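The genotype effect differed between polysomal and total RNA in 10 of the 13 synthetase genes listed in both tables, by the interaction test over all 8 libraries, against 89.5% of all 5780 genes. The difference between the effects was positive for Sars2 (1.78), Aars2 (1.71), Yars (1.41), Vars (1.32), Aars (1.23) and Vars2 (1.03) on the log2 scale. It was negative for Rars2 (-1.72), Dars (-1.23), Rars (-1.08) and Iars (-0.62). For Aars, Vars, Yars, Aars2, Sars2 and Vars2 the estimates were below 0 in total RNA and above 0 in polysomal RNA, and those of Sars2 and Vars2 in total RNA did not pass the test. With an offset for GC content the interaction calls of Aars, Vars, Vars2 and Dars were lost, and the polysomal estimates of Aars, Vars, Aars2 and Vars2 were below 0 as well.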

How the results depend on the processing

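In total RNA the counts of members called lower stayed at 16 cytosolic and 3 mitochondrial with RLE and upper-quartile scaling, no filter, a mean of at least 5 CPM, limma-voom, the replicate block and the GC offset, and were 14 and 3 in DESeq2. DESeq2 called 1396 genes higher and 1548 lower overall. All 8 libraries in 1 fit, which tests only the genes in both tables, gave 590 higher, 696 lower and 6 cytosolic members lower. The GC offset, alone or with the block, added 1 mitochondrial gene called higher (Fars2). Sars turned to 0.0099 with upper-quartile scaling, 0.0011 with a mean of at least 5 CPM, 0.0243 with the GC offset, and 0.0238 with the GC offset and the block. When a library was left out, values ran from -0.0679 to 0.0571 for Sars, -0.0302 to 0.3103 for Cars2, -0.1814 to 0.0517 for Hars2, -0.3594 to 0.0005 for Rars2 and -0.1439 to 0.0008 for Vars2. Leaving out a library gave 1498 to 1721 genes higher, 1672 to 1807 lower, 13 to 15 cytosolic and 2 to 4 mitochondrial members lower.

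In polysomal RNA DESeq2 called 3 cytosolic members lower. The GC offset called 1324 genes higher, 1283 lower, 0 cytosolic and 0 mitochondrial members higher and 1 mitochondrial member lower, and with the block 1269, 1271, 0, 0 and 1. The reversed values, with the GC offset and then with the offset and the block, were -0.33 and -0.33 for Aars, 0.20 and 0.20 for Farsb, -0.54 and -0.55 for Vars, -0.27 and -0.27 for Aars2 and -0.0561 and -0.0537 for Vars2. Leaving out a library gave 2339 to 2715 genes higher, 2358 to 3048 lower, 2 to 3 cytosolic members higher, 3 to 5 lower, and 2 to 3 mitochondrial members higher.

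For polysomal over total RNA in WT, limma-voom called 461 genes higher, the GC offset 324 genes higher and 0 cytosolic members lower, and the GC offset with the block 0 cytosolic members lower. Vars2 came to 0.0417 with the GC offset, and 0.0424 with the offset and the block. When a library was left out it ran from -0.0992 to 0.0474, and Tars from -0.020 to 0.0971. Leaving out a library gave 22 to 921 genes higher, 157 to 1101 lower, 0 to 2 cytosolic members higher, 0 to 1 lower and 0 to 1 mitochondrial members higher.

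For polysomal over total RNA in dKO, the GC offset called 1631 genes higher, 1578 lower, 1 cytosolic member higher and 2 lower, and with the block 1585, 1547 and 2 cytosolic members lower. Iars2 came to 0.0065 with RLE scaling, 0.0068 in DESeq2, 0.27 with the GC offset and 0.28 with the block. Farsb came to 0.26 with the offset and 0.26 with the block, and Tars to 0.30 and 0.29, and from -0.5107 to 0.048 when a library was left out. For the interaction, the GC offset called 1226 genes higher and 1111 lower, and with the block 1160 and 1056. Farsb came to 0.42 and 0.42, Tars to 0.28 and 0.28 and, without dKO polysomal replicate 1, 0.0041, and Iars2 to 0.19 and 0.19. The cause of these changes was not tested.

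The replicate numbers were shared by the groups, and the labels do not say whether they pair the libraries. The correlation of same-numbered deviations was -0.044 between genotypes in total RNA, 0.0631 in polysomal RNA, 0.0384 between fractions in WT and 0.0169 in dKO. With the replicate number as a block, 2098 genes were higher and 2271 lower in total RNA, 2730 and 3042 in polysomal RNA, 154 and 444 between fractions in WT, 2482 and 2700 between fractions in dKO, and 2507 and 2621 for the interaction. RLE scaling moved the median of all genes by 0.24 in polysomal RNA, 0.14 for the fractions in dKO and 0.13 for the interaction, and DESeq2 by 0.24, 0.14 and 0.13. Mitochondrial members had a median SE of 0.13 in total RNA, against 0.08 for cytosolic members, so depth limits their calls more.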
